A study of Mus musculus with 22 samples.

Results

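In wild-type mouse back skin, 41 genes had a lower signal at postnatal day 14 (P14) than at P6 and a lower one again at P23. The members were chosen on the wild-type array values, as probe sets that the platform annotation pairs with exactly 1 gene and whose log2 signal averaged at least 7.67 over all 22 arrays. The wild-type P14 mean had to lie at least 0.5 below the P6 mean, and the P23 mean at least 0.5 below the P14 mean. Gene symbols starting with Krt, Col, Kif, Mcm, Cdc and Ccn were left out. Of 5634 probe sets with 1 gene and enough signal, which stand for 4899 genes, 41 met the rule, each for a different gene, and 9 more met its steps but carried a left-out prefix. All 41 passed the filter on low signal because the rule contains it. The filter applies to the mean over all ages, so a single group mean can lie below 7.67. At P23 the wild-type means of Plk1 (6.54) and Myh8 (6.11) did, while that of Tuba1a (12.64) stayed far above.

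The arrays compared CB6F1 wild-type littermates with K14-DN-Clim mice, which express a dominant-negative CLIM protein under the keratin 14 promoter. CLIM (Ldb) proteins are nuclear cofactors of LIM domain transcription factors. The promoter is active in basal keratinocytes and the outer root sheath of the hair follicle, so most cells of back skin do not express the transgene from it. At P6 each genotype had 5 arrays, and at P14 and P23 each had 3. Per the series' design text, follicles form and grow at the first 2 ages and rest, in telogen, at P23. Whether each array stands for 1 mouse is not stated in the labels. The p-values thus set group differences against a spread between arrays that may be technical. Markers of skin were bright at each age: loricrin (Lor) of the cornified layer had group means of 13.18 to 14.85 on the log2 scale and the type I collagen gene Col1a1 of the dermis had means of 14.48 to 14.81.

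In growing hair follicles the matrix cells around the dermal papilla divide fast, and their division stops when the follicle regresses and enters rest. Genes for DNA synthesis are transcribed before and during S phase and genes for mitosis in G2 and M, so the amount of their messenger RNA in a tissue follows the share of cycling cells. Skin also grows quickly after birth, and perinatal forms of muscle proteins and imprinted growth genes are switched down over the same weeks. In whole skin, fewer cells of a type and less RNA per cell cannot be told apart.

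Of the 41 members, 10 act in cell division, 7 in DNA replication or on chromatin and 4 are signals or receptors. Myh8 belongs to muscle and Mest is an imprinted growth gene. The other 18 have varied roles. Because the wild-type arrays chose the members, their wild-type values are given here as a description with no test. The age changes in DN-CLIM skin did not enter the rule, apart from the mean signal, and are the ones tested.

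Many promoters of genes used in G2 and M carry CCAAT boxes, bound by the factor NF-Y, and a cell cycle genes homology region (CHR), through which repressor complexes act in resting cells. The stretches below are the 250 bases before the start used in the promoter table for 4 cell division members, picked by hand. They come from RefSeq on GRCm38.p6 and run 5′ to 3′ on the strand of the gene. Capitals mark the CHR with the letters TTTGAA, the CCAAT box, the E2F site with TTTCGCGC or with TTTGGCGC, and the TATA box with TATAAA, on either strand. An ATTGG is thus a CCAAT box, and TTCAAA is a CHR, read from the other strand. Cdk1 lies at chr10:69352913-69353162 (minus strand), Mki67 at chr7:135716380-135716629 (minus), Cks1b at chr3:89418292-89418541 (minus) and Plk1 at chr7:122159185-122159434 (plus). The last 71 bases of the Mki67 stretch, as printed, lie inside the annotated span of that gene, which has a start further upstream.
Cdk1: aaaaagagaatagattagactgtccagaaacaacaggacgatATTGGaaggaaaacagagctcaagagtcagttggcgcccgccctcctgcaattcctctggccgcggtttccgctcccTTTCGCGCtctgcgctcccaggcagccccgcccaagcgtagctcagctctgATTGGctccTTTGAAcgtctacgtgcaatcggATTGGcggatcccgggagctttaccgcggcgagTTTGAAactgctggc
Mki67: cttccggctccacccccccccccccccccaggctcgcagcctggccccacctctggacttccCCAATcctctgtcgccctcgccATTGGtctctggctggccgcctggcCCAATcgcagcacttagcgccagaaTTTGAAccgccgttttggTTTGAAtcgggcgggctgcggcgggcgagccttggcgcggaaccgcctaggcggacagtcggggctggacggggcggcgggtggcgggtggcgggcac
Cks1b: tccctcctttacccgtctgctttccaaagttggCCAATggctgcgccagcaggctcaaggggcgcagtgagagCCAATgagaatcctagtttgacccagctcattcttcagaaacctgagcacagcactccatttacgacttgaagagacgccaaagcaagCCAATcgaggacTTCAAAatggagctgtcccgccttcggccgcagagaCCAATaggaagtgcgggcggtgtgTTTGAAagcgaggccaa
Plk1: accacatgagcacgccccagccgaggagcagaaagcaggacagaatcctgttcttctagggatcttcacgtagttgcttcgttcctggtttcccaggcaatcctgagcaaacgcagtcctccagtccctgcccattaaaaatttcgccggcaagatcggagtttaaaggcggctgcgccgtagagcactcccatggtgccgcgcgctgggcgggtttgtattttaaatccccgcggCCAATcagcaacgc

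The Cdk1 promoter held 3 CCAAT boxes, 2 CHR matches and 1 E2F match, and Mki67 held 3 CCAAT boxes and 2 CHR matches. Cks1b held 4 CCAAT boxes and 2 CHR matches, while Plk1 held 1 CCAAT box and no CHR letters in this window. Among the cell division members not printed, Birc5, Mad2l1, Cks2 and Racgap1 held no CHR letters, and Birc5 and Mad2l1 no CCAAT box. Promoters were listed for 35 of the 41 members, and for genes with several the first listed was read. In 28 of the 35 the window lay wholly outside the annotated span of the gene, and in 7 (Acp1, Chaf1b, Ezh2, Mki67, Taf1d, Tk1 and Usp15) part or all of it lay inside. A CCAAT box was present in 21 of the 35 (60.0%), against 36.3% of the 3972 tested genes with a promoter and 34.5% of all 27025 genes in the table. CHR letters were present in 6 (17.1%), against 10.9% of tested genes and 16.3% of all genes in the table. An E2F match was in 1 (2.86%), against 1.36% and 0.673%. The GC box GGGCGG, not capitalised above, was in 27 (77.1%), against 61.3%, and TATAAA in 1 (2.86%), that of Myh8, against 7.1%. The 6 members with CHR letters were Abcf2, Cdk1, Ckap2, Cks1b, Mc1r and Mki67. These matches describe letters in a window and are not evidence of binding.

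The mean level of the 41 members stepped down in both genotypes. On the log2 scale the wild-type P6 level was 9.84 ± 0.03 (SD, n = 5), followed by 9.09 ± 0.06 (SD, n = 3) at P14 and 8.05 ± 0.10 (SD, n = 3) at P23. In DN-CLIM skin it was 9.77 ± 0.12 (SD, n = 5), 9.17 ± 0.04 (SD, n = 3) and 8.12 ± 0.03 (SD, n = 3). The array means of the 3 ages did not overlap within either genotype. In wild type the rule favours this separation, for the mean level and for each single member described below. The lowest P6 array, DN-CLIM replicate 5, stood at 9.57, above the highest P14 array of either genotype at 9.21.

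**Figure D1:**
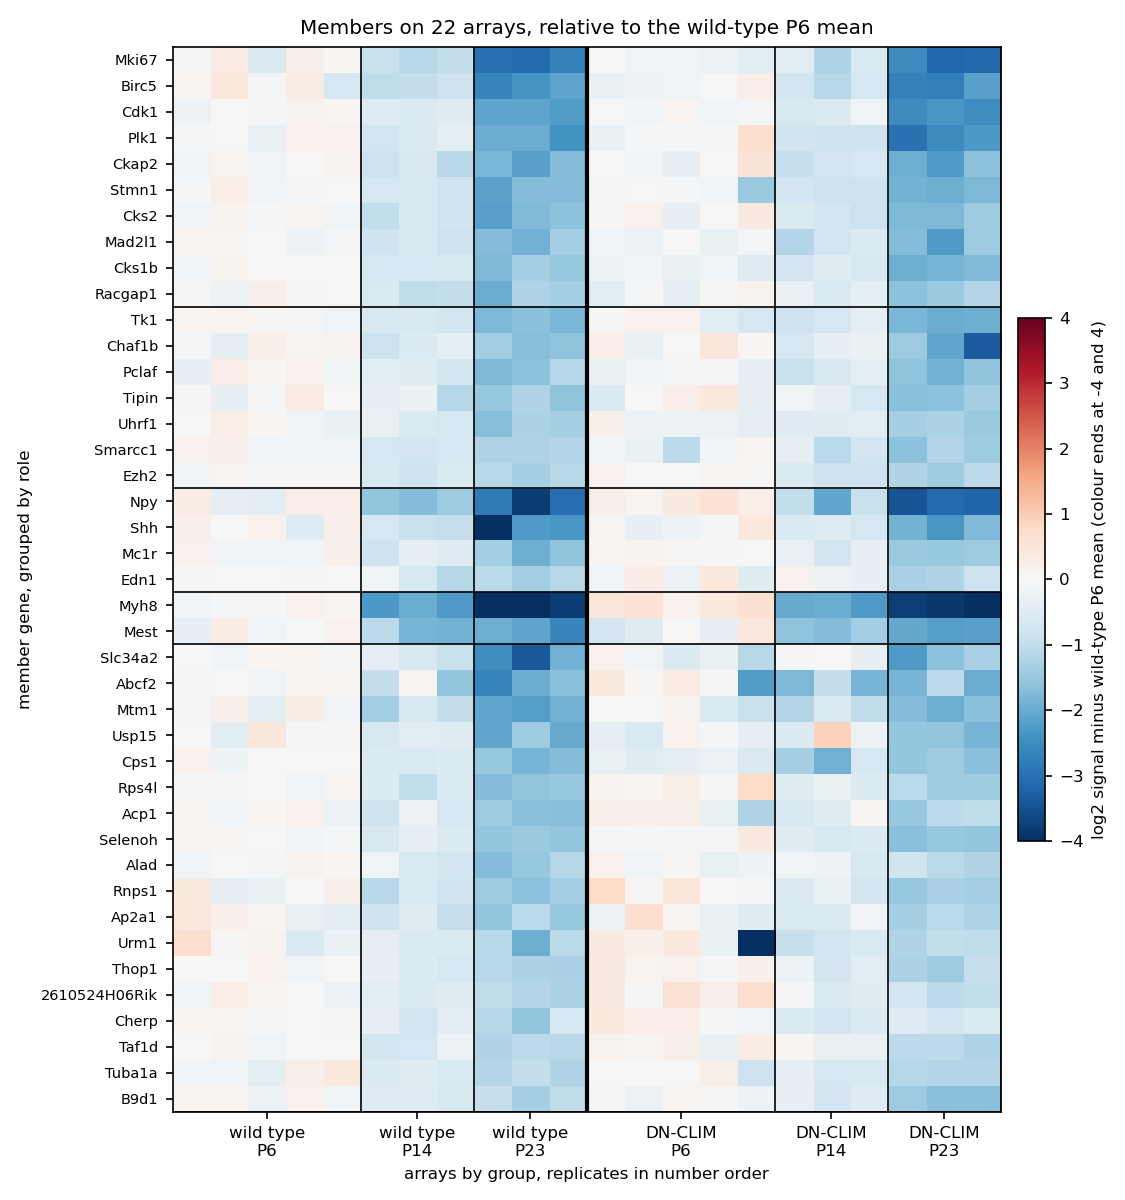
Heat map of the log2 signal of the 41 members (rows, grouped by role) on the 22 arrays (columns, by group), as the difference from the wild-type P6 mean of each gene; blue is lower and red higher. The blue deepens from P6 to P14 to P23 in both genotypes, in wild type as the rule required. DN-CLIM P6 replicate 5 has single low cells, among them Urm1 at 5.07.

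One array stood apart before any comparison. DN-CLIM P6 replicate 5 correlated with its group at a mean r of 0.923 over all tested probe sets, against 0.954 to 0.982 for the other 21 arrays. It was low for the members in the group of varied roles (a mean of 9.38 against 9.79 to 10.07 on the other 4 arrays) but not for the cell division members (9.93 against 9.83 to 9.90). The counts over all 41 members called lower from P6 to P14 and to P23, and with arrays in full order, are given with and without it. So are values of Abcf2, Slc34a2, Stmn1, Tuba1a and Urm1. Other counts over the members that use P6 are given with it only.

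In DN-CLIM skin the first step, from P6 to P14, was called lower for 25 of the 41 members, where called means an adjusted p under 0.05 in limma over all 6207 tested probe sets. Over all tested probe sets 14.7% were called lower at this step. The median log2 change of the members was -0.51, with 39 lower and 2 higher. Without DN-CLIM P6 replicate 5 the count was 28. The P6 arrays numbered 1 to 3 and those numbered 4 and 5 gave 29 and 13 calls when used alone, the second with 2 arrays in the P6 group.

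From P14 to P23, 36 of the 41 members were called lower in DN-CLIM skin, where 27.2% of all tested probe sets were. The median change was -0.99. The 5 not called were Abcf2, Cherp, Cps1, Mest and Urm1. Both steps were called for 21 members, and for 2.14% of all tested probe sets. In limma 0 of the 41 were called higher at either step (0 also at an unadjusted p under 0.05), where 12.1% of all tested probe sets were called higher at the first and 27.1% at the second. Over the whole interval 26.6% were.

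Over the whole interval, P23 minus P6, the 40 members called lower in DN-CLIM skin stood beside 28.2% of all tested probe sets. The median was -1.50, a 2.83-fold fall, against 3.05-fold in wild type, where the rule fixed the direction. The exception was Urm1, which encodes a ubiquitin-like protein used in tRNA modification. Its change was -0.42 (SE 0.63, adjusted p = 0.59 in limma), and without DN-CLIM P6 replicate 5 it was -1.26 (adjusted p = 0.00015 in limma), which brought the count to 41. The P6 arrays numbered 1 to 3 gave 41 calls and those numbered 4 and 5 gave 38.

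Array by array, in 18 of the 41 members each DN-CLIM P6 array lay above each P14 array and each P14 array above each P23 array, a pattern found in 2.87% of all tested probe sets. Without DN-CLIM P6 replicate 5 the number was 24. Each P6 array lay above each P23 array in 38 members, against 25.6% of tested probe sets. The other 3 were Abcf2, Acp1 and Urm1, in each of which only DN-CLIM P6 replicate 5 lay below a P23 array. In wild type, 35 members had their arrays in full order, a count that the rule favours.

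**Figure D2:**
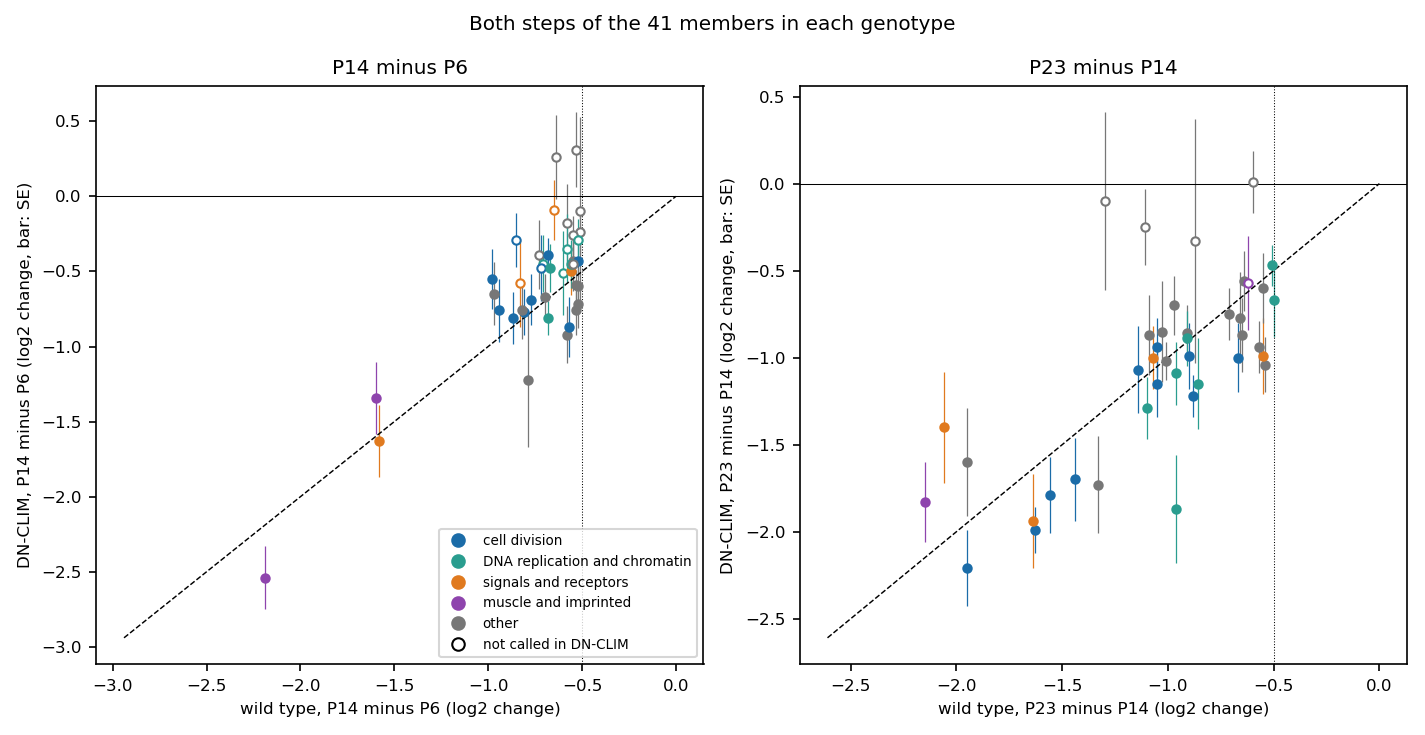
Log2 change of each member at the first step (left) and at the second step (right), in wild type on the horizontal axis and in DN-CLIM on the vertical axis with its SE; colours give the role, open circles are members not called in DN-CLIM, the dashed line marks equal change and the dotted line the rule's threshold of 0.5 in wild type. Slc34a2 and Usp15 lie above 0 at the first step, at 0.26 and 0.31, and Cherp lies at 0.01 at the second.

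Cell division members formed the largest role group. In DN-CLIM skin 8 of the 10 were called lower from P6 to P14 (median -0.62), 10 from P14 to P23 (median -1.19) and 10 over the whole interval (median -1.84). Over all tested probe sets 14.7%, 27.2% and 28.2% were called lower. The first-step exceptions were Racgap1, a regulator of cytokinesis (-0.29, adjusted p = 0.23 in limma), and Stmn1, the microtubule destabiliser stathmin (-0.48, adjusted p = 0.11). Without DN-CLIM P6 replicate 5, where Stmn1 stood at 11.06 against 12.43 to 12.51 on the other 4 arrays, its first-step change was -0.76 (adjusted p = 5.6e-06 in limma).

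Mki67 encodes Ki-67, the surface protein of mitotic chromosomes that marks cycling cells. Its log2 signal on the DN-CLIM arrays was 10.58, 10.45, 10.43, 10.34 and 10.15 at P6, then 10.18, 9.36 and 9.99 at P14 and finally 8.03, 7.42 and 7.46 at P23. The wild-type arrays read 10.50, 10.92, 10, 10.82 and 10.67, then 9.70, 9.48 and 9.63, then 7.59, 7.47 and 7.89. The P23 arrays lay far below all others in both genotypes, while in DN-CLIM the P14 array at 10.18 overlapped the lowest P6 array. Between P14 and P23 Mki67 fell 4.62-fold in DN-CLIM skin (log2 change -2.21, SE 0.22, adjusted p = 2.6e-08 in limma). Its first step was smaller, -0.55 (SE 0.20, adjusted p = 0.042), and was lost in 6 of 8 fits without 1 array, up to 0.32 without DN-CLIM P14 replicate 2.

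Cdk1, the kinase that drives entry into mitosis, had most of its fall in the second step. The DN-CLIM arrays read 10.38, 10.24, 10.47, 10.24 and 10.31 at P6, then 9.72, 9.79 and 10.20 at P14 and finally 7.84, 8.02 and 7.88 at P23. In wild type they read 10.12, 10.39, 10.30, 10.50 and 10.47, then 9.83, 9.77 and 9.89, then 8.25, 8.26 and 8.11. The 3 ages did not overlap in either genotype. The DN-CLIM fall from P6 to P23 was 5.33-fold (-2.41, SE 0.11, adjusted p = 6.1e-14 in limma), of which the first step made up 17.6%, and in wild type it made up 24.4%. The first-step call of Cdk1 was lost in 2 of 8 fits without 1 array, with an adjusted p of up to 0.062 without DN-CLIM P14 replicate 1.

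Plk1, a mitotic kinase, and Birc5, the chromosomal passenger survivin, fell by similar amounts. Plk1 read 8.41 to 9.33 at P6, 7.83 to 7.86 at P14 and 5.68 to 6.37 at P23 in DN-CLIM skin, a fall of 6.31-fold from P6 to P23 (-2.66, SE 0.20, adjusted p = 2.3e-10 in limma). Birc5 read 8.98 to 9.57, 8.19 to 8.59 and 6.53 to 7.11, a fall of 5.49-fold (-2.46, SE 0.21, adjusted p = 2.3e-09). For both genes the 3 ages did not overlap. Survivin's first-step call had an adjusted p of 0.074 without DN-CLIM P14 replicate 2.

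The Cdk-binding subunits Cks1b and Cks2, the spindle checkpoint gene Mad2l1 and the spindle protein gene Ckap2 fell at both steps in DN-CLIM skin. From P6 to P23 the changes were -1.61 for Cks1b, -1.72 for Cks2, -1.67 for Mad2l1 and -1.96 for Ckap2, with adjusted p of 3.9e-11, 3e-09, 2.2e-08 and 2.3e-09 in limma. In Cks2, Mad2l1 and Ckap2 the arrays of the 3 ages did not overlap. In Cks1b the P6 array at 10.23 lay below the P14 array at 10.26, and its first-step call had an adjusted p of 0.064 without DN-CLIM P14 replicate 1.

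All 7 replication and chromatin members were called lower from P14 to P23 (median -1.09) and from P6 to P23 (median -1.49) in DN-CLIM skin, and 3 of them, Ezh2, Tk1 and Pclaf, from P6 to P14 (median -0.45). The shares over all tested probe sets were 27.2%, 28.2% and 14.7% in that order. Ezh2 encodes the histone H3 lysine methyltransferase of polycomb repressive complex 2 and had the larger part of its fall first. Its DN-CLIM arrays read 9.94, 9.78, 9.77, 9.88 and 9.82 at P6, then 9.19, 8.95 and 8.95 at P14 and finally 8.59, 8.36 and 8.73 at P23, with no overlap between ages. The wild-type arrays read 9.68, 9.88, 9.69, 9.83 and 9.83, then 9.15, 8.96 and 9.20, then 8.66, 8.45 and 8.66, also without overlap. The first step was -0.81 (SE 0.11, adjusted p = 7.6e-06 in limma) and the second -0.47 (SE 0.12, adjusted p = 0.0021).

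Tk1, the thymidine kinase of S phase, took the other course. In DN-CLIM skin it read 11.13, 11.24, 11.24, 10.61 and 10.38 at P6, then 10.23, 10.37 and 10.71 at P14 and finally 9.25, 9.09 and 9.12 at P23. P6 and P14 overlapped through P6 replicates 4 and 5, and P23 lay below both. From P14 to P23 it fell 2.44-fold (-1.29, SE 0.18, adjusted p = 2.7e-06 in limma), and the first step was -0.48 (adjusted p = 0.027, lost in 5 of 8 fits without 1 array, up to 0.14 without DN-CLIM P14 replicate 1). Pclaf, the PCNA-associated factor, changed by -0.45 (adjusted p = 0.041 in limma, lost in 6 of 8 such fits, up to 0.21 without DN-CLIM P14 replicate 1) and then by -1.09 (adjusted p = 2.6e-05).

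Chaf1b, a subunit of the chromatin assembly factor that loads histones behind the replication fork, had the largest fall of this group in DN-CLIM skin, 5.22-fold from P6 to P23 (-2.38, SE 0.28, adjusted p = 1.9e-07 in limma). Its P23 arrays were spread, at 7.26, 6.65 and 5.38, against 7.36, 7.01 and 7.10 in wild type. Uhrf1, which guides maintenance DNA methylation, Tipin of the replication fork protection complex and Smarcc1, a core subunit of SWI/SNF chromatin remodellers, fell by 1.18, 1.49 and 1.13 on the log2 scale over the interval (adjusted p = 2.9e-07, 1.2e-05 and 3.1e-05 in limma). The second step of Smarcc1 was -0.67 (adjusted p = 0.01) and was lost in 2 of 6 fits without 1 array, up to 0.071 without DN-CLIM P14 replicate 1.

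**Figure D3:**
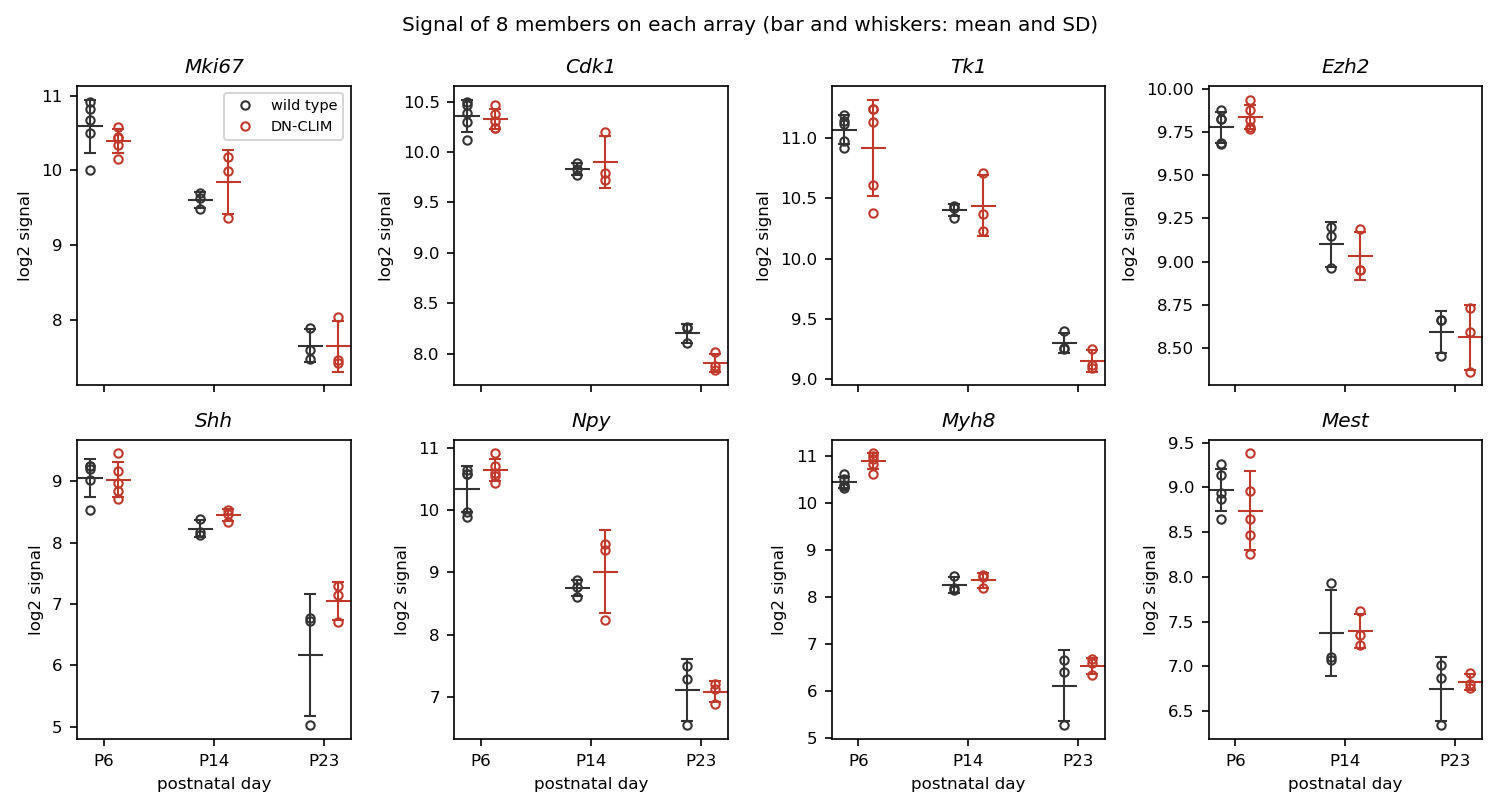
Log2 signal (vertical axis) of 8 members on each array at P6, P14 and P23 (horizontal axis), wild type in black and DN-CLIM in red; circles are arrays, bars and whiskers the mean and SD (n = 5 at P6, 3 at P14 and 3 at P23). Myh8 falls from 10.89 to 6.53 in DN-CLIM, and the P14 arrays lie between those of P6 and P23 except where Mki67 and Tk1 overlap with P6.

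All 4 signals and receptors were called lower in DN-CLIM skin from P14 to P23 and from P6 to P23, and 2 of them, Npy and Mc1r, from P6 to P14. The shares over all tested probe sets were 27.2%, 28.2% and 14.7% in that order. Shh encodes Sonic hedgehog, the ligand that the follicle epithelium secretes to drive its own growth. On the DN-CLIM arrays it read 9.17, 8.72, 8.85, 8.97 and 9.46 at P6, then 8.47, 8.54 and 8.34 at P14 and finally 7.15, 6.71 and 7.30 at P23. In wild type it read 9.25, 9.03, 9.21, 8.53 and 9.25, then 8.39, 8.17 and 8.13, then 5.02, 6.78 and 6.72. The ages did not overlap in either genotype, and 1 wild-type P23 array was far below the other arrays of its group.

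Over the interval Shh fell 3.95-fold in DN-CLIM skin (-1.98, SE 0.29, adjusted p = 4.8e-06 in limma), with the second step at -1.40 (adjusted p = 0.00088) and the first at -0.58 (adjusted p = 0.14). The values of 2 target genes of the pathway, picked after they were seen, stand beside those of the ligand. Gli1, the transcription factor that hedgehog signalling induces, had DN-CLIM means of 9.19, 8.38 and 6.65 (first step -0.81, adjusted p = 0.0032; second step -1.73, adjusted p = 5.5e-07 in limma). Ptch1, the receptor that is itself a target, had means of 9.73, 8.86 and 8.41, with steps of -0.87 and -0.45 (adjusted p = 2.4e-05 and 0.0096 in limma). In wild type the means were 9.09, 8.32 and 7.96 for Gli1 and 9.58, 9.16 and 8.81 for Ptch1.

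Npy, the secreted neuropeptide Y, showed the second largest fall of all members. The DN-CLIM arrays read 10.55, 10.44, 10.70, 10.91 and 10.60 at P6, then 9.35, 8.24 and 9.45 at P14 and finally 6.89, 7.21 and 7.13 at P23. The wild-type arrays read 10.64, 9.96, 9.89, 10.58 and 10.58, then 8.76, 8.61 and 8.87, then 7.49, 6.54 and 7.29, and in neither genotype did the ages overlap. The DN-CLIM fall was 11.82-fold from P6 to P23 (-3.56, SE 0.24, adjusted p = 5.3e-11 in limma), split into -1.63 (adjusted p = 4.6e-05) and -1.94 (adjusted p = 3.7e-06).

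Mc1r, the melanocortin receptor that sets which pigment melanocytes make, went down at both steps. Its DN-CLIM arrays read 8.62 to 8.83 at P6, 7.93 to 8.41 at P14 and 7.19 to 7.29 at P23, with no overlap, and the steps were -0.50 (adjusted p = 0.023 in limma, but 0.17 without DN-CLIM P14 replicate 2) and -1.0 (adjusted p = 5.8e-05). Of the 8 tested melanocyte and pigment genes 4 were called higher and 2 lower from P6 to P14 in DN-CLIM skin, and 6 were called lower from P14 to P23. The shares over all tested probe sets were 12.1%, 14.7% and 27.2% in that order. In wild type 2 of the 8 were called higher and 3 lower at the first step, against 586 and 704 of 6207 tested probe sets. Pmel, a protein of the melanosome, had DN-CLIM means of 10.91, 11.64 and 8.85, and Dct, a melanin enzyme, had 11.48, 12.22 and 9.93. Pmel and Dct rose at the first step (adjusted p = 0.0064 and 0.012 in limma) where Mc1r fell.

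Edn1, the vasoconstrictor and melanocyte factor endothelin 1, fell at the second step, with the first not called. Its DN-CLIM arrays read 8.79 to 9.67 at P6, 8.92 to 9.44 at P14 and 7.96 to 8.39 at P23, so that P6 and P14 overlapped and P23 lay below. The steps were -0.09 (adjusted p = 0.76 in limma) and -0.99 (adjusted p = 0.00076). The first changed sign without single arrays, at 0.02 without DN-CLIM P6 replicate 4 and 0.01 without DN-CLIM P14 replicate 3. The other tested Edn1 probe set had wild-type means of 8.48, 8.88 and 7.60, higher at P14 than at P6.

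Myh8, the perinatal myosin heavy chain of skeletal muscle, had the largest fall of the members. The DN-CLIM arrays read 10.93, 11.01, 10.62, 10.84 and 11.06 at P6, then 8.42, 8.46 and 8.18 at P14 and finally 6.67, 6.59 and 6.33 at P23. The wild-type arrays read 10.33, 10.36, 10.39, 10.61 and 10.51, then 8.14, 8.45 and 8.18, then 5.26, 6.41 and 6.65. The ages lay far apart in both genotypes. At P6 the lowest DN-CLIM array (10.62) lay just above the highest wild-type array (10.61). The genotype difference at P6, 0.45, was not called (adjusted p = 0.56 in limma). In DN-CLIM skin the fall was 20.58-fold (-4.36, SE 0.21, adjusted p = 7.9e-14 in limma), with steps of -2.54 and -1.83 (adjusted p = 8.8e-09 and 8.4e-07).

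The adult fast myosins moved the other way. Myh4 had DN-CLIM means of 7.65, 11.80 and 13.89 at P6, P14 and P23, and Myh1 had 9.80, 11.30 and 12.89, each step called higher in limma. Of the 30 tested skeletal muscle genes 10 were called lower and 5 higher from P6 to P14 in DN-CLIM skin, against 14.7% and 12.1% of all tested probe sets. From P14 to P23 3 of the 30 were called lower and 22 higher (median 1.68), against 27.2% and 27.1%. The list's mean level per array ran from 9.66 to 9.96 at P6, 9.69 to 9.84 at P14 and 11.07 to 11.27 at P23. The amount of muscle in the skin samples was not measured, and its part in the Myh8 values was not tested.

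Mest, an imprinted gene of fetal and early postnatal growth, had most of its fall early. The DN-CLIM values were 8.25, 8.47, 8.96, 8.65 and 9.38 at P6, then 7.35, 7.24 and 7.62 at P14 and finally 6.93, 6.76 and 6.80 at P23. The wild-type arrays read 8.65, 9.26, 8.87, 8.94 and 9.14, then 7.93, 7.10 and 7.07, then 7.02, 6.87 and 6.34. Neither genotype showed overlap, but the second step in DN-CLIM was -0.57 (SE 0.27, adjusted p = 0.077 in limma) after a first step of -1.34 (SE 0.24, adjusted p = 0.00031). The first step made up 72.1% of the fall in wild type and 70.1% in DN-CLIM.

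Other imprinted genes shared the first step of Mest but mostly not the second. Of 14 tested, Mest included, 12 were called lower from P6 to P14 in DN-CLIM skin (median -1.15). From P14 to P23 1 was called lower and 7 higher (median 0.60). Over all tested probe sets 14.7% were called lower at the first step, and 27.2% lower and 27.1% higher at the second. Igf2, the fetal growth factor, was the 1 called lower again, with DN-CLIM means of 13.87, 11.99 and 11.64. Dlk1, a Notch-like protein of precursor cells, had 11.72, 9.18 and 9.78, and Peg3 had 11.88, 10.21 and 10.98.

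Of the 18 members of varied roles, 10 were called lower in DN-CLIM skin from P6 to P14 (median -0.52), 14 from P14 to P23 (median -0.81) and 17 over the interval (median -1.30). The shares over all tested probe sets were 14.7%, 27.2% and 28.2%. Selenoh encodes a selenoprotein of the nucleolus. Its DN-CLIM arrays read 11.27, 11.25, 11.28, 11.23 and 11.68 at P6, then 10.82, 10.69 and 10.76 at P14 and finally 9.66, 9.79 and 9.75 at P23. The ages did not overlap, and the fall was 3.05-fold (-1.61, SE 0.10, adjusted p = 7.3e-12 in limma).

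Among these members Rnps1, a splicing activator of the exon junction complex, fell by 1.63 on the log2 scale from P6 to P23 (adjusted p = 1.8e-07 in limma), and Taf1d, a subunit of the RNA polymerase I factor, by 1.21 (adjusted p = 8.9e-08). B9d1, a protein of the ciliary transition zone, fell by 1.47 (adjusted p = 2e-08), and Alad, the second enzyme of heme synthesis, by 0.95 (adjusted p = 1.6e-05). Thop1, a peptidase, fell by 1.35 (adjusted p = 1.9e-08), and the uncharacterised 2610524H06Rik by 1.28 (adjusted p = 4.4e-07). Ap2a1, a subunit of the clathrin adaptor, fell by 1.16 (adjusted p = 0.00022), and Acp1, a small tyrosine phosphatase, by 1.03 (adjusted p = 0.0018). These 8 genes passed the whole interval, and their first step was called for Rnps1, B9d1, Thop1 and 2610524H06Rik.

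Tuba1a, an alpha-tubulin, was the brightest member, at 12.91 to 13.97 in DN-CLIM P6, 13.08 to 13.37 at P14 and 12.58 to 12.60 at P23. It fell by 1.05 over the interval (adjusted p = 4e-05 in limma). Its first step was -0.45 (adjusted p = 0.068), and -0.63 without DN-CLIM P6 replicate 5 (adjusted p = 0.0014). Rps4l, a close copy of a ribosomal protein gene, fell by 1.53 (adjusted p = 1e-08) and Mtm1, a phosphoinositide phosphatase, by 1.52 (adjusted p = 2.4e-06), both measured by probe sets that can share sequence with related transcripts.

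In DN-CLIM skin some members of this group were not called at 1 of the steps, though no member's age change was called different between the genotypes. Usp15, a deubiquitinase, read 9.32, 9.11, 9.88, 9.63 and 9.35 at P6, then 9.17, 10.63 and 9.52 at P14 and finally 8.15, 8.13 and 7.85 at P23. Its first step of 0.31 (adjusted p = 0.37 in limma) turned to -0.11 without the P14 array at 10.63, and the second was -1.73 (adjusted p = 2e-05). Slc34a2, a sodium-phosphate transporter, changed by 0.26 (adjusted p = 0.53 in limma), or by 0.07 without DN-CLIM P6 replicate 5 (adjusted p = 0.86), and then by -1.60 (adjusted p = 0.0002). In both genes the P6 and P14 arrays overlapped in DN-CLIM skin, and the P23 arrays lay below them.

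Cherp, a calcium homeostasis and RNA processing factor, had its whole DN-CLIM fall before P14, with steps of -0.76 (adjusted p = 0.0012 in limma) and 0.01 (adjusted p = 0.98). Cps1, the first enzyme of the urea cycle, had steps of -0.92 (adjusted p = 0.0013) and -0.25 (adjusted p = 0.35). Abcf2, an ATPase of the ABC family, read 9.38, 9.02, 9.30, 8.94 and 6.73 at P6 in DN-CLIM skin, 7.18, 8.04 and 7.13 at P14 and 7.13, 7.94 and 6.99 at P23. Its steps were -1.22 (adjusted p = 0.049 in limma) and -0.10 (adjusted p = 0.89), and without DN-CLIM P6 replicate 5, the array at 6.73, the first was -1.71 (adjusted p = 0.00042). P14 and P23 overlapped in all 3 of these genes.

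Further calls in DN-CLIM skin were lost in limma when single arrays were left out. The first-step call was lost for Abcf2 in 6 of 8 such fits (adjusted p up to 0.16, without DN-CLIM P14 replicate 3), for Mtm1 in 5 of 8 (up to 0.13, without DN-CLIM P14 replicate 1) and for B9d1 in 4 of 8 (up to 0.19, without DN-CLIM P14 replicate 2). At the second step Acp1 and Ap2a1 were each lost in 2 of 6 fits (up to 0.098 and 0.081, both without DN-CLIM P14 replicate 3). The second-step calls of 2610524H06Rik (0.074) and Tuba1a (0.07) were lost in 1 of 6, the one without DN-CLIM P14 replicate 1. Over the interval Abcf2 was lost in 2 of 8 (up to 0.078, without DN-CLIM P23 replicate 3).

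The larger part of the fall came after P14 for most members. The first step made up a median of 42.0% of the fall in wild type and 32.7% in DN-CLIM skin, and it was the larger step in 9 members in wild type and in 7 in DN-CLIM. The fall from P6 to P23 was larger in DN-CLIM for 18 members and larger in wild type for 23. The rule set a minimum only for the wild-type steps, so these shares and counts lean by selection and are given as a description. Applied to the DN-CLIM arrays, the same rule found 44 of the 5634 probe sets with 1 gene and enough signal. Of these 44, 17 were members, or 41.5% of the wild-type list and 38.6% of the DN-CLIM list. The shared genes included Mki67, Birc5, Plk1, Cks2, Shh, Npy, Myh8 and Mest.

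Between the genotypes, 0 of the 41 members were called at P6, P14 or P23 in limma, where 0.0322%, 0.0644% and 0.161% of all tested probe sets were called. At an unadjusted p under 0.05 there were 4, 5 and 9 members, against 8.18%, 6.27% and 4.58% of all tested probe sets. The median DN-CLIM minus wild-type difference over the members came to -0.09 at P6, 0.07 at P14 and 0.07 at P23. These differences use the wild-type arrays that chose the members and are given as a description.

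The largest single differences between genotypes, DN-CLIM minus wild type, were -0.65 for Urm1 and 0.45 for Myh8 at P6. Without DN-CLIM P6 replicate 5 the Urm1 difference turned to 0.18. At P14 they were -0.74 for Abcf2 and -0.72 for Cps1. The Abcf2 difference was -0.29 without wild-type P14 replicate 2 and -1.12 without wild-type P14 replicate 3, and that of Cps1 was -0.42 without DN-CLIM P14 replicate 2. The P23 differences were 0.88 for Shh and 0.85 for Slc34a2, at 0.30 for Shh without wild-type P23 replicate 1 and 0.47 for Slc34a2 without wild-type P23 replicate 2. These sizes thus moved with single arrays, apart from that of Myh8 (0.41 to 0.52), which was not called either (adjusted p = 0.56 in limma). At P23 the DN-CLIM Shh arrays (6.71 to 7.30) overlapped the 2 upper wild-type arrays (6.72 and 6.78). The test of a different age change between genotypes had its lowest adjusted p over the members at 0.70 for the first step, 0.72 for the second and 0.72 for the interval in limma.

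The members fell within wider lists of the same functions. Of 48 tested genes of mitosis and G2/M, 10 were members, and left-out genes such as Kif22, Kif23 and Ccnb2 were in the list too. The list's counts and medians therefore partly restate genes that met the rule's steps. Plk1 was read there at a brighter probe set than the member's. In DN-CLIM skin 21 of the 48 were called lower from P6 to P14, 35 from P14 to P23 and 42 over the interval. Of all tested probe sets 14.7%, 27.2% and 28.2% were. The medians of the list were -0.43, -0.96 and -1.33, and 0 of its genes were called higher at any step. Without DN-CLIM P6 replicate 5, an alternative chosen after seeing the data, the counts that use P6 were 23 and 42. Cdc20, an activator of the anaphase-promoting complex, fell by 2.77 over the interval (adjusted p = 1e-13 in limma). Foxm1, a transcription factor for G2/M genes, changed by -0.15 (adjusted p = 0.46).

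Of 38 tested genes of DNA replication and S phase, 5 were members, and the list also held the left-out Mcm5 and Mcm7. At the first step 13 of the 38 were called lower and 1 higher, and at the second 26 lower and 1 higher. Over the interval 33 were called lower (medians -0.31, -0.66 and -0.83). The shares called lower over all tested probe sets were 14.7%, 27.2% and 28.2%. The first-step rise was that of Ung, a DNA repair glycosylase (0.69, adjusted p = 0.0029 in limma). Without DN-CLIM P6 replicate 5 the first-step and whole-interval counts of falls were 14 and 33. Pcna, the sliding clamp of replication, was not a member: it fell by 0.92 at the first step (adjusted p = 5.6e-05) and changed by 0.11 at the second (adjusted p = 0.57).

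The hair list had other medians than the members. The list held 40 tested genes of the hair matrix, shaft and root sheath, with Shh among them. In DN-CLIM skin 21 were called higher and 5 lower from P6 to P14 (median 0.55), and 38 were called lower from P14 to P23 (median -5.76). The shares over all tested probe sets were 12.1%, 14.7% and 27.2% in that order. Msx2, a homeobox gene of the matrix, had DN-CLIM means of 10.65, 10.95 and 3.49. The median of the members at the first step, -0.51, thus had the opposite sign to that of the hair list.

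**Figure D4:**
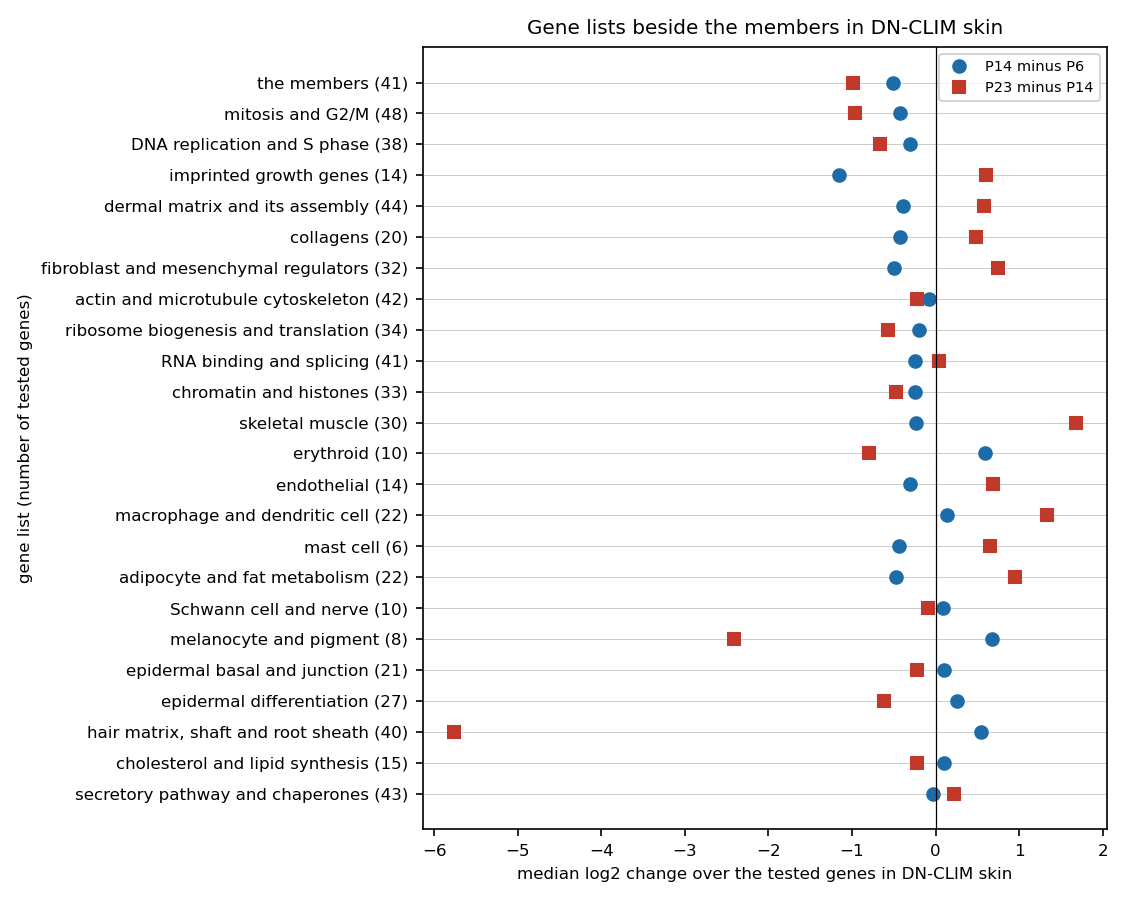
Median log2 change in DN-CLIM skin from P6 to P14 (blue circles) and from P14 to P23 (red squares) over the tested genes of each list, with the number of tested genes in brackets; some genes are in several lists. The members lie at -0.51 and -0.99, next to the mitosis list at -0.43 and -0.96, which includes 10 of the members' genes. The hair list lies at 0.55 and -5.76 and the muscle list at -0.23 and 1.68.

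A second probe set was present for 14 of the 41 genes, 21 probe sets in all, and 11 of these were bright enough to be tested. From P6 to P23 in DN-CLIM skin 6 of the 11 were called lower, those of Edn1 (-0.66), Taf1d (-1.37) and Tuba1a (-1.40), 1 of Plk1 (-1.69) and 2 of Acp1 (-0.90 and -0.40). The other tested Mtm1 probe set rose by 1.19 (adjusted p = 3.5e-05 in limma), against -1.52 at the member's, and that of Usp15 was at 0.40 (adjusted p = 0.12), against -1.41. Another Plk1 probe set was at -0.30 (adjusted p = 0.33 in limma), against -2.66 at the member's. Further Acp1 probe sets were at -0.50 (adjusted p = 0.05, not called) and 0.19 (adjusted p = 0.42), against -1.03. The falls of Mtm1 and Usp15 therefore hold for 1 probe set each, and those of Plk1 and Acp1 for only some of their tested ones. None of the 11 met both wild-type steps of the rule: 7 met the second, and 1, that of Taf1d, the first (-0.76, then -0.02). At the first DN-CLIM step 0 of the 11 were called lower in limma (1 at an unadjusted p under 0.05) and 1 of Acp1 was called higher, and at the second 8 were called lower and that of Mtm1 higher. Over all tested probe sets 14.7% were called lower at the first step, 27.2% at the second and 28.2% over the interval.

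Close to the thresholds, the weaker wild-type step was -0.505 for Smarcc1, -0.507 for Alad and -0.507 for Urm1, just inside the rule. Just outside were Farsa at -0.498, Emp2 at -0.496 and Snrpa1 at -0.489.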

How the data were processed

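Total RNA of back skin was labelled with biotin by in vitro transcription and read on 22 single-colour arrays, per the labels' protocols. The deposited intensities are linear signals per probe set, made by the authors with MAS5, per the submitters' processing notes; the MAS5 version is not given here. Of 12488 probe sets, 66 controls were left out. The 2% trimmed mean was 500.2 to 500.3 on every array, so arrays had been scaled alike, and no further normalization was applied (array medians 7.56 to 7.80 on the log2 scale). The number of arrays limits the precision.

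Of the 10833 probe sets with 1 gene, 10817 matched a RefSeq gene table by Entrez identifier and 0 symbols changed. The model was a limma fit (limma 3.58.1, R 4.3.3) on log2 signals of all 22 arrays with 1 mean per group (eBayes with a variance trend, Benjamini-Hochberg over 6207 probe sets with a mean of at least 7.67, threshold 0.05). The fit was tested on simulated data. Wild-type arrays chose the members, so DN-CLIM age changes carry the tests.

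The members and lists were chosen with earlier results of these data known. The role groups and the lists are curated, and lists take the probe set of highest mean signal per gene. Named genes are a selection from these: the 10 largest wild-type falls, up to 5 members per list with the smallest p in DN-CLIM, the 5 smallest DN-CLIM falls, the 5 largest genotype differences at each age, the 3 closest on either side of a threshold and the 10 brightest members in no list. The further members were named to account for all 41, and non-members such as Gli1, Ptch1, Pmel, Dct, Myh4, Myh1, Igf2, Dlk1, Peg3, Cdc20, Foxm1, Ung, Pcna and Msx2 were named after their values were seen. Probe sets whose names end in _f_at, _s_at or _r_at, among the members those of Myh8, Plk1, Mtm1, Rps4l, Edn1, Taf1d, Tuba1a and 2610524H06Rik, can share sequence with related transcripts. Alternatives tried were quantile normalization, 16 added to each signal, other signal filters, no variance trend, array weights, only the DN-CLIM arrays, the replicate number as a block, P6 arrays by number, other steps in the rule, and each array left out.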

Additional observations from a re-analysis of the deposited data

Results flagged for a closer look

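In 84 groups of 5 values (the members and their mean level, in both genotypes at P6), a lone array stood apart in 8, all of them in DN-CLIM P6; chance gives about 1 in 20 groups. DN-CLIM P6 replicate 5 was the lone array in 7 of these. The mean level of the 41 members was lowest there, at 9.57, with the next array at 9.78. Replicate 5 was lowest for Abcf2 at 6.73, for Stmn1 at 11.06, for Tuba1a at 12.91 and for Urm1 at 5.07. The next arrays were at 8.94 for Abcf2, 12.43 for Stmn1, 13.73 for Tuba1a and 8.78 for Urm1. It was highest for Plk1 at 9.33, with the next array at 8.62, and for Selenoh at 11.68, with the next at 11.28. Replicate 1 was highest for Uhrf1 at 10.16, with the next array at 9.73.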

How the results depend on the processing

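For the DN-CLIM counts of members called lower in limma (25 from P6 to P14, 36 from P14 to P23 and 40 from P6 to P23), leaving out 1 array in turn gave 18 to 28, 33 to 37 and 39 to 41. A minimum mean log2 signal of 9 left 20 members to test, and 13, 20 and 20 were called. The P6 arrays numbered 4 and 5 alone gave 13 at the first step. Members with all DN-CLIM arrays in order numbered 18 to 24 with 1 array left out and 29 with P6 arrays 1 to 3 alone. The rule gave 72 members with steps of 0.4, 20 with steps of 0.6, 140 without the filter on signal, and 34 to 45 with 1 wild-type array left out. The genotype medians ranged from -0.11 to -0.03 at P6, 0.03 to 0.12 at P14 and 0.01 to 0.10 at P23 in those fits. With the replicate number as a block the counts were 27, 36 and 40. Deviations of same-numbered arrays from their group means correlated at a median r of 0.009 over 47 pairs (-0.09 to 0.248). These pairs were taken across ages as well as genotypes, so they cannot decide whether the numbers pair the samples.

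Among the single members, 20 values changed sign, 78 lost and 24 gained a call, and 1865 kept direction and call. The sign changes were in changes that had not been called. Acp1 was at 0.39 at the first step with P6 arrays 4 and 5 alone. Urm1 was at 1.36 there, at 1.04 over the interval, and at the first step at 0.15, 0.12, 0.16 and 0.00 without DN-CLIM P6 replicate 1, 2, 3 or 4, in a range of -0.93 to 0.16 over all arrays left out. At the first step Edn1 ranged from -0.25 to 0.02 (0.02 and 0.01 without the arrays named in the report) and Usp15 from -0.11 to 0.62. At the second step Cherp was at -0.04 with quantile normalization, -0.02 with array weights, and -0.05, -0.03 and -0.01 without DN-CLIM P14 replicate 2, P23 replicate 1 or P23 replicate 3. Abcf2 was at 0.07 with array weights and at 0.20, 0.02 and 0.08 without the same 3 arrays, with a lowest value of -0.39, and Cps1 ranged from -0.55 to 0.06, the latter without DN-CLIM P14 replicate 3. The Urm1 difference between genotypes at P6, -0.65, ranged from -0.91 to 0.18 with 1 array left out, an alternative chosen after seeing the data. The cause was not tested.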

Other observations

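Of the 9 probe sets that met the steps but were left out by their prefix, 8 encode proteins of division or replication (Ccnb2, Cdca8, Kif11, Kif22, Kif23, Kif2c, Mcm5 and Mcm7) and 1, Krtap6-3, a keratin-associated protein of the hair shaft. In DN-CLIM skin 8 of the 9 were called lower from P6 to P14 in limma, 9 from P14 to P23 and 9 over the interval. The shares over all tested probe sets were 14.7%, 27.2% and 28.2%. The wild-type steps of Krtap6-3 were -1.632 and -4.725 on the log2 scale. CCAAT letters were in 7 of the 9 promoters (77.8%) and CHR letters in 4 (44.4%), against 36.3% and 10.9% of tested genes.

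Other lists moved against the members at the second step. In DN-CLIM skin 18 of 22 macrophage and dendritic cell genes were called higher from P14 to P23 (median 1.33). So were 17 of 22 adipocyte genes (median 0.95), 25 of 44 dermal matrix genes (median 0.58) and 10 of 14 endothelial genes (median 0.69). Over all tested probe sets 27.1% were called higher. Of 34 genes of ribosome biogenesis and translation 7 were called lower at the first step, near the 14.7% of all tested probe sets, and 22 at the second, against 27.2% (medians -0.20 and -0.57). Of 33 chromatin and histone genes 14 and 19 were called lower (medians -0.25 and -0.47).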
